A study of Mus musculus with 20 samples.

Results

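The genes described here are those whose symbol begins with Mrpl or Mrps followed by a digit, which by name encode proteins of the large and small subunits of the mitochondrial ribosome. The rule for membership uses the symbol and no measured value. The tables held 78 of them, 49 Mrpl and 29 Mrps genes, among 13156 genes in either table. All 78 were among the 13107 genes of the Myc experiment and 77 among the 11210 genes of the HU experiment, in which Mrpl36 was not analysed here. By current knowledge of the complex, 51 of the 78 belong to the large subunit and 26 to the small subunit. Mrps30 and Mrps18a are large subunit proteins in spite of their names. Mrps36 is now known as a subunit of the 2-oxoglutarate dehydrogenase complex of the citric acid cycle, and it was kept under the symbol rule.

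Mitochondrial ribosomes translate the few messenger RNAs of the mitochondrial genome, which code for hydrophobic core subunits of the respiratory chain and of ATP synthase. Their ribosomal RNAs come from the mitochondrial genome, but every one of their proteins is encoded in the nucleus, made in the cytosol and imported. Some of these proteins have bacterial counterparts and others occur only in mitochondria. Liver cells are rich in mitochondria, and genes for ribosome production are widely described as targets of the transcription factor Myc.

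The cells were p19/Nras, a mouse liver cancer line derived from a tumour that Nras induced in a p19/Arf-null mouse, so every group lacked p19/Arf and carried Nras. Trim33, a ubiquitin ligase, was targeted with CRISPR in the knockout (KO) lines, and WT cells carried a control guide. In the Myc experiment WT, KO1 and KO2 cells carried either the empty pWZL vector (Ctrl) or the Myc vector, which made 6 groups of 2 libraries. In the HU experiment WT and KO cells were left untreated or received 1 mM hydroxyurea (HU), an inhibitor of ribonucleotide reductase that slows replication forks, for 4 hours, which made 4 groups of 2 libraries. Which of the KO lines entered the HU experiment is not given by the labels. Nothing in the labels says that the 2 libraries of a group came from separate cultures. The p-values thus measure only spread between libraries, which the test estimates from all groups of an experiment and moderates over its genes. Whether each KO line is a single clone is not given in the sources used here, and a difference between WT and KO lines cannot be told apart from a difference between cell lines that diverged in culture.

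Library totals were 14753177 to 17949430 counts in the Myc experiment and 2315327 to 3082202 in the HU experiment, so the HU values carry more counting error. Of 11 hepatocyte markers none was in the Myc experiment's table and 1, Apob, was in that of the HU experiment, whereas 6 of 7 fetal liver and progenitor markers, Krt8, Krt18, Krt19, Sox9, Spp1 and Afp, were in both. Endothelial markers were in neither table. Summed fibroblast and stellate markers (5 of 6 in the table of the Myc experiment) were at 179 to 180 CPM, the read count of a gene scaled to the size of its library, in WT Ctrl, 397 to 425 in KO1 Ctrl and 137 to 151 in KO2 Ctrl. Their part in the results was not tested.

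Several Myc vector libraries went against their labels. Trim33 mRNA was at 245.6 and 258.1 CPM in WT Ctrl cells, at 123.4 and 130.4 in KO1 Ctrl cells and at 200.9 and 206.8 in KO2 Ctrl cells, but at 130.7 and 154.7 under the WT Myc label, 185.4 and 192.5 under the KO1 Myc label and 124.1 and 124.7 under the KO2 Myc label. Of 185 genes that differed by more than 3 log2 units between KO2 Ctrl and KO1 Ctrl, 183 differed with the opposite sign between the libraries labelled KO2 Myc and KO1 Myc, and 142 of these passed the test. The summed fibroblast markers behaved the same way, with 70.4 to 73.6 CPM under the KO1 Myc label and 376 to 377 under the KO2 Myc label. Which KO line a Myc vector library carries is therefore not taken from its label alone, and the Myc results in KO cells are also given with both KO lines in 1 contrast, which does not depend on it. The labels WT and KO fared better, since of 238 genes beyond 3 log2 units from WT Ctrl in both KO lines, 211 and 224 kept their sign under the KO1 Myc and KO2 Myc labels against WT Myc. In the HU experiment Trim33 was at 125.2 to 142.2 CPM in the 4 WT libraries and 43.77 to 52.16 in the 4 KO libraries, as labelled.

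In WT Ctrl cells the mitoribosomal mRNAs spanned a wide range of levels. Per kilobase of exon, counted as all exons of a gene merged in GENCODE M1 on mm9, the 78 genes ran from 2.45 to 96.7 CPM per kb with a median of 20.3. Mrpl52 stood highest at 96.7 CPM per kb, above Mrpl12 at 63.4 and Mrpl32 at 60.7. Mrpl12 and Mrpl10 form the flexible stalk of the large subunit that recruits translation factors, and Mrpl10 stood at 39.2 CPM per kb. The lowest levels were those of Mrps25 at 2.45, Mrpl36 at 2.68 and Mrpl48 at 3.65. These genes were picked for their level. The median was 22.4 CPM per kb over 51 large subunit genes and 18 over 26 small subunit genes. Merged exons of genes with many isoforms are long, which lowers the value per kb, so neighbours in this order are not separated by it. Summed over all members, the level was 2800 to 3274 CPM in the 12 libraries of the Myc experiment and 3097 to 3735 CPM in the 8 libraries of the HU experiment. The pair labelled WT Myc held both the highest sum, 3274, and a sum of 2948, and it also differed most between its libraries over all genes, with a chi-square per degree of freedom of 11 against 2.21 to 4.52 in the other groups of that experiment.

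**Figure D1:**
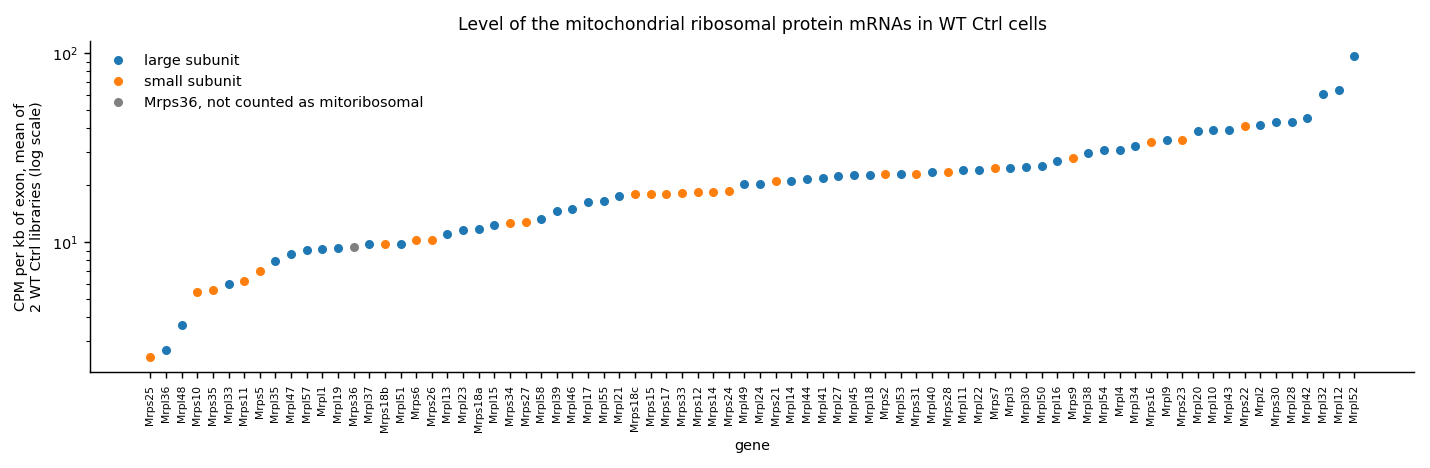
CPM per kilobase of merged exon on a log axis for each of the 78 genes, as the mean of the 2 WT Ctrl libraries, ordered from low to high and coloured by ribosomal subunit. Levels run from 2.45 for Mrps25 to 96.7 for Mrpl52. Large and small subunit genes are mixed up to 41.1, the highest small subunit value, and the genes above it are all of the large subunit.

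The members lie on 17 chromosomes. In 17 of 78, or 21.8%, another protein-coding gene starts on the opposite strand within the 1000 bp upstream of the member's start. The share was 11.3% of the 11797 genes with a gene model. Opposite-strand pairs whose starts lie inside each other's genes were not counted, for members or for all genes. A counted case is Mrps12, which lies 171 bp from the start of Sars2, the mitochondrial seryl-tRNA synthetase. The merged exons of the members had a median length of 1718 bases against 3683 over all genes with a gene model. The exons of 22 members overlapped those of another gene by 100 bp or more, and since the library kit named in the labels does not mark strand, reads from such stretches cannot be assigned to 1 gene with certainty. Mrpl46 and Mrps11, both members, overlap each other by 173 bp and are a pair that the upstream search left out. RefSeq promoters (GRCm38.p6, 250 bases before to 50 after the start) were found for 69 members and 9817 genes in all. The Yy1 motif AAGATGGCG, searched on both strands like the others, was in 8 of 69 member promoters, or 11.6%, against 3.65% of all promoters, and the Ets motif ACTTCCG was in 17, or 24.6%, against 15.3%. The Nrf1 motif was in 3, or 4.35%, against 2.29%. The E-box CACGTG, the letters to which Myc binds with Max, was in 5, or 7.25%, against 11.6% of all, and an E2f motif (TTTCCCGC or TTTGGCGC) in 2, or 2.9%, against 3.5%. No motif holds another, and none was in 39 of the 69 promoters.

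The first comparison asks what loss of Trim33 does to these mRNAs in unchallenged cells. In KO1 Ctrl against WT Ctrl, 14 of 78 members rose and 23 fell at an adjusted p below 0.01, and in KO2 Ctrl 16 rose and 27 fell. Over all 13107 genes tested 25.5% rose and 26.7% fell in KO1, and 23.3% rose and 26.6% fell in KO2. Among the members 29.5% fell in KO1 and 34.6% in KO2, and 17.9% and 20.5% rose. No test compared these shares with those over all genes. The median log2 fold change of the members was -0.087 in KO1 and -0.100 in KO2, against -0.0036 and -0.011 over all genes. Single members ran from -1.36 to 1.21 in KO1 and from -1.41 to 1.08 in KO2. Both comparisons share the WT Ctrl libraries, so the likeness of the lines is not independent evidence. Whichever of the compared libraries was left out, fewer members were called, in KO1 as in KO2, with the counts given at the end. In bulk RNA, fewer cells of a type and less RNA per cell cannot be told apart.

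**Figure D2:**
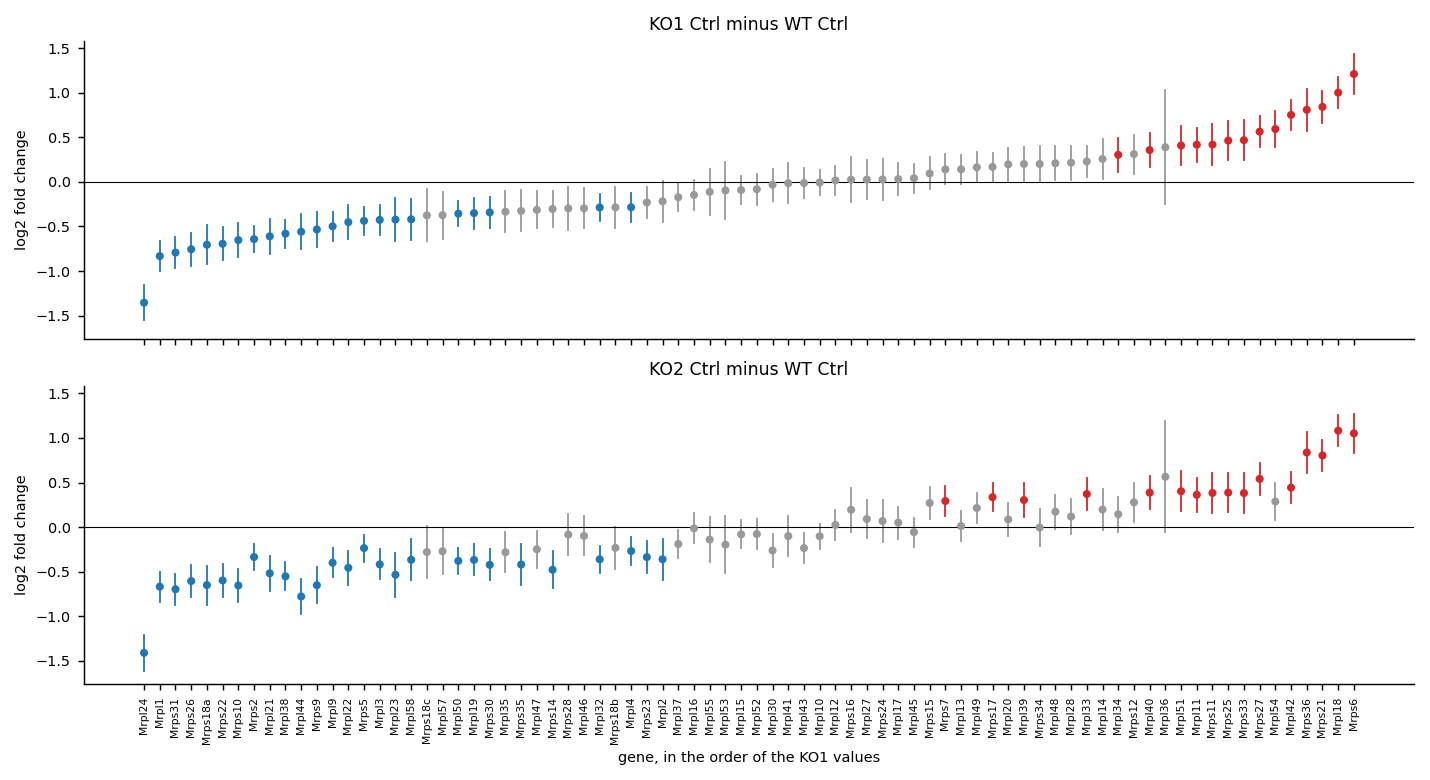
Log2 fold change against WT Ctrl of each of the 78 genes in KO1 Ctrl (top) and KO2 Ctrl (bottom), with 95% confidence intervals as bars and genes in the order of the KO1 values. Red and blue points rose and fell at an adjusted p below 0.01 and grey points did not pass, with Mrpl24 at the lower end and Mrps6 and Mrpl18 at the upper end in both panels and a wide interval for Mrpl36, the member with the lowest counts.

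Both subunits held members that rose and members that fell. Of 51 large subunit genes 7 rose and 16 fell in KO1, and 7 rose and 17 fell in KO2. Of 26 small subunit genes 6 rose and 7 fell in KO1, and 8 rose and 10 fell in KO2. The same held for mitochondria-specific proteins and those with bacterial counterparts. Of the 21 mitochondria-specific large subunit genes 4 rose and 6 fell in KO1, beside 3 and 10 of the 30 with a bacterial counterpart.

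Mrpl24, a protein by the exit of the polypeptide tunnel, fell most. Its mRNA was at 45.2 and 46.7 CPM in WT Ctrl cells, at 17.6 and 18.3 in KO1 Ctrl cells and at 18.6 and 16.0 in KO2 Ctrl cells. The WT and KO libraries did not overlap, and the log2 fold change was -1.36 ± 0.093 (adjusted p = 2.89e-09) in KO1 and -1.41 ± 0.094 (adjusted p = 2.54e-09) in KO2, errors being standard errors, which is 2.56-fold and 2.66-fold lower. The gene lies at chr3:87723428-87727594, plus strand on mm9, and 594 bp of its exons overlap those of Rrnad1 on the opposite strand. Rrnad1 was at 10.8 and 10.3 CPM in WT Ctrl and 9.18 and 8.68 in KO1 Ctrl and did not pass the test in either line, with log2 fold changes of -0.24 ± 0.12 (adjusted p = 0.0944) and -0.24 ± 0.12 (adjusted p = 0.0968).

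Mrpl1, a protein of the stalk by which spent tRNA leaves the ribosome, was at 38.4 and 40.3 CPM in WT Ctrl cells, at 22.4 and 21.8 in KO1 Ctrl cells and at 24.9 and 24.7 in KO2 Ctrl cells. It fell in both lines, with log2 fold changes of -0.83 ± 0.080 (adjusted p = 1.65e-07) and -0.67 ± 0.079 (adjusted p = 1.96e-06), with no overlap between WT and KO libraries. Mrps31, a mitochondria-specific small subunit protein, was at 34.4 and 36.2 CPM in WT Ctrl cells, at 19.8 and 20.9 in KO1 Ctrl cells and at 22.01 and 21.5 in KO2 Ctrl cells, with changes of -0.79 ± 0.083 and -0.70 ± 0.082. Mrpl44, a large subunit protein related to RNase III, was at 29.6 and 31.9 CPM in WT Ctrl cells, at 19.1 and 22.6 in KO1 Ctrl cells and at 17.8 and 18.1 in KO2 Ctrl cells. Its changes were -0.56 ± 0.093 and -0.78 ± 0.094 (adjusted p = 2.6e-06), and Wdfy1, whose exons overlap its own by 126 bp, had values of -0.19 ± 0.12 (adjusted p = 0.182) and -0.39 ± 0.13 (adjusted p = 0.0127). Mrps26, Mrps18a, Mrps10 and Mrps22 fell as well, with log2 fold changes in KO1 of -0.76 ± 0.087, -0.71 ± 0.10, -0.65 ± 0.088 and -0.69 ± 0.088. Their values in KO2 were -0.61 ± 0.085, -0.65 ± 0.10, -0.65 ± 0.088 and -0.60 ± 0.087. In these 4 genes, too, every KO Ctrl library was below both WT Ctrl libraries.

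Mrps6, a small subunit protein with a bacterial counterpart, rose most in KO1. It was at 16.8 and 15.5 CPM in WT Ctrl cells, at 39.7 and 35.03 in KO1 Ctrl cells and at 31.6 and 35.5 in KO2 Ctrl cells, which gave log2 fold changes of 1.21 ± 0.10 (adjusted p = 4.11e-08) and 1.05 ± 0.11 (adjusted p = 2.82e-07). Of its 1590 bases of merged exon (mm9 chr16:92058515-92112472, plus strand), 696 bp overlap exons of Slc5a3 on the same strand. Slc5a3, a sodium-coupled myo-inositol transporter, moved with it. It was at 16.5 and 17.8 CPM in WT Ctrl cells, at 55.9 and 51.7 in KO1 Ctrl cells and at 54.8 and 48.6 in KO2 Ctrl cells, with log2 fold changes of 1.65 ± 0.12 (adjusted p = 5.74e-09) and 1.59 ± 0.12 (adjusted p = 1.18e-08). How the authors' counting split the shared exons is not given in the sources used here, so all values of Mrps6 may hold reads of Slc5a3.

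Mrpl18, a protein of the central protuberance of the large subunit, was at 30.9 and 32.6 CPM in WT Ctrl cells, at 65.3 and 61.6 in KO1 Ctrl cells and at 69.6 and 64.8 in KO2 Ctrl cells. It rose 2-fold and 2.12-fold, with log2 fold changes of 1.00 ± 0.083 (adjusted p = 2.81e-08) and 1.08 ± 0.083 (adjusted p = 1.31e-08). Tcp1, which overlaps its exons by 141 bp on the opposite strand, did not pass the test, with 0.11 ± 0.050 (adjusted p = 0.0648) and 0.13 ± 0.050 (adjusted p = 0.0341). Mrps21, a small subunit protein with a bacterial counterpart, was at 28.7 and 25.02 CPM in WT Ctrl cells, at 47.04 and 49.03 in KO1 Ctrl cells and at 46.96 and 46.7 in KO2 Ctrl cells, with changes of 0.84 ± 0.083 and 0.80 ± 0.083. Mrps36, the dehydrogenase subunit, was at 12.01 and 11.8 CPM in WT Ctrl cells, at 19.8 and 21.9 in KO1 Ctrl cells and at 20.1 and 22.4 in KO2 Ctrl cells, with changes of 0.81 ± 0.11 and 0.84 ± 0.11. In all 3 genes both KO lines lay above WT Ctrl without overlap. Mrpl42, a mitochondria-specific large subunit protein, rose by 0.75 ± 0.079 in KO1 and 0.44 ± 0.080 in KO2, and Mrps27, a small subunit protein built of pentatricopeptide repeats, by 0.56 ± 0.084 and 0.54 ± 0.084.

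The RefSeq promoters of the member that fell most and of 4 that rose in both KO lines are shown from 250 bases before to 50 bases after the annotated start, 5′ to 3′ along the gene, with matches to the motifs above in capitals and coordinates on GRCm38.p6. Mrpl18 held 2 Ets motifs and Mrpl42 held 1 Yy1 motif, whereas the windows of Mrpl24, Mrps6 and Mrps21 held none of the letters searched.
Mrpl24 (chr3:87919294-87919593, plus strand): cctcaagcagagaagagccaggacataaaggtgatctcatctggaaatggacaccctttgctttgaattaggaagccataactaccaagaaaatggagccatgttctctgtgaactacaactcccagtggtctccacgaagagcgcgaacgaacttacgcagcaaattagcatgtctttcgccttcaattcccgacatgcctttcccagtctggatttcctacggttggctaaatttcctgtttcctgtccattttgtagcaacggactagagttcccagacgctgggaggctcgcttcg
Mrps6 (chr16:92058086-92058385, plus strand): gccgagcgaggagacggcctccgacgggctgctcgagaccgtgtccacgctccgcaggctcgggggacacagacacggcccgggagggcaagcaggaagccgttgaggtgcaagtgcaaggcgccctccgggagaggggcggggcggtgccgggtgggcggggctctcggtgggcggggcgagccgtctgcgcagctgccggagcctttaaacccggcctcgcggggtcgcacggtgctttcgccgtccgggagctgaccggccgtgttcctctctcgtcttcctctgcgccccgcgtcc
Mrpl18 (chr17:12916042-12916341, minus strand): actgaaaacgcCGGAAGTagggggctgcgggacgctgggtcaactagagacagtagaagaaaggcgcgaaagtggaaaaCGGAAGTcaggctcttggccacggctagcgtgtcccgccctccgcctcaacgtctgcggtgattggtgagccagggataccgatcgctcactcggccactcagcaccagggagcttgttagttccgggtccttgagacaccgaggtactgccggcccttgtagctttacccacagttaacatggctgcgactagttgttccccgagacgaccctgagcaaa
Mrps21 (chr3:95871465-95871764, minus strand): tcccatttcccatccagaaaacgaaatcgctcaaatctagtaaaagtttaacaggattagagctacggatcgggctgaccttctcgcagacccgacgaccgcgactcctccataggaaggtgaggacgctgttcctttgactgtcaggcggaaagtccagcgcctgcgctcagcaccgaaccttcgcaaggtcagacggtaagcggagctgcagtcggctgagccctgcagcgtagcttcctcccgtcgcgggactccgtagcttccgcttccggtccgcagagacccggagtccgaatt
Mrpl42 (chr10:95501900-95502199, minus strand): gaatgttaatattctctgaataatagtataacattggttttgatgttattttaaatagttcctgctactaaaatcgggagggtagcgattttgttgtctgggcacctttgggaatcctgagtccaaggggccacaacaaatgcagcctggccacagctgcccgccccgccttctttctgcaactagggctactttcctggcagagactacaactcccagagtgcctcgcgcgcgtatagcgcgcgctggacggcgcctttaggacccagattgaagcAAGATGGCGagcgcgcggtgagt

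**Figure D3:**
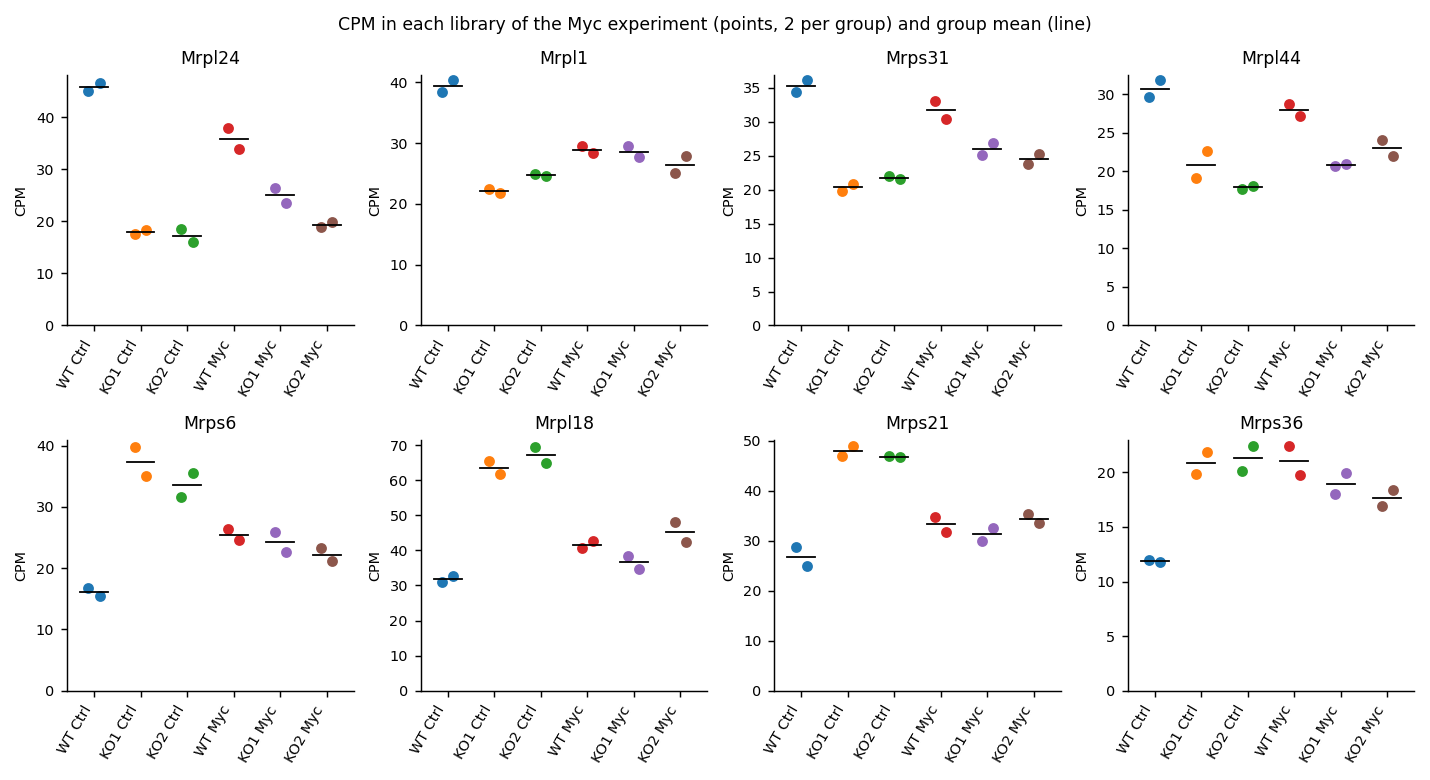
CPM of 8 members in each library of the Myc experiment (points, 2 per group, groups as labelled) with the group mean as a line, on axes that start at 0. Mrpl24, Mrpl1, Mrps31 and Mrpl44 are lower and Mrps6, Mrpl18, Mrps21 and Mrps36 higher in KO1 Ctrl and KO2 Ctrl than in WT Ctrl, and for Mrps6 and Mrpl18 all 6 Myc vector libraries lie between the WT Ctrl and the KO Ctrl libraries.

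Of 5 further members, named for their place in the ribosome, Mrpl3 passed the test and the others did not. The stalk proteins were among the latter. Mrpl12 was at 96.2 and 98.2 CPM in WT Ctrl cells, at 99.7 and 96.8 in KO1 Ctrl cells and at 103 and 95.2 in KO2 Ctrl cells, with a log2 fold change in KO1 of 0.016 ± 0.079 and a 95% interval from -0.15 to 0.18. Mrpl10 had -0.0077 ± 0.065 in KO1 and -0.10 ± 0.065 in KO2. Mrpl3, close to the peptidyl transferase centre, fell in both lines, with -0.43 ± 0.080 and -0.42 ± 0.080. Mrps12, of the decoding centre, had 0.31 ± 0.10 (adjusted p = 0.0149) and 0.28 ± 0.10 (adjusted p = 0.0279) and did not pass, nor did Mrpl45, a membrane anchor at the tunnel exit, with 0.040 ± 0.077 and -0.057 ± 0.077. Of the 3 proteins related to bacterial S18, Mrps18a fell, as given above. Mrps18b was at -0.29 ± 0.11 in KO1 and -0.23 ± 0.11 in KO2 and Mrps18c at -0.38 ± 0.14 and -0.28 ± 0.14, and neither passed. No test was made between the 3 genes, whose values were all negative.

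Among the genes that serve the mitochondrial ribosome, 41 factors of mitochondrial translation and ribosome assembly fell more often than they rose, with 5 that rose and 16 that fell in KO1 and 2 and 17 in KO2, and medians of -0.19 and -0.19. The lowest called in KO1 was Ngrn, an assembly factor of the large subunit, at -1.04 ± 0.11. Of 17 mitochondrial aminoacyl-tRNA synthetases 4 rose and 4 fell in KO1 and 2 and 6 in KO2. Of 86 cytosolic ribosomal protein genes 7 rose and 8 fell in KO1 and 3 and 21 in KO2. Their values lay closer together than those of the mitoribosomal genes, from -0.71 to 0.47 in KO1. In WT Ctrl the cytosolic genes summed to 43590 and 42420 CPM and the members to 3053 and 2997. The part of counting error, which is larger at lower levels, in this difference of range was not tested. Of 72 nuclear subunits of oxidative phosphorylation 17 rose and 9 fell in KO1 and 11 and 14 in KO2.

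Few members were called between the KO lines. In KO2 Ctrl against KO1 Ctrl, 1 of 78 rose and 1 fell, against 8.33% and 9.96% of all genes, and all members lay between -0.31 and 0.31. The member that was higher in KO2 was Mrps2, a small subunit protein, at 43.4 and 41.8 CPM in KO1 Ctrl cells and 51.9 and 53.5 in KO2 Ctrl, a log2 fold change of 0.31 ± 0.071 (adjusted p = 0.0038). The member that was lower was Mrpl42, at 51.3 and 50.7 CPM in the former and 42.9 and 39.5 in the latter, with -0.31 ± 0.075 (adjusted p = 0.00565). Both calls were lost whenever 1 of the 4 libraries was left out, with values of 0.28 to 0.33 for Mrps2 and -0.37 to -0.25 for Mrpl42. The fit on these groups alone called 5 members.

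The Myc vector was used to ask how Myc acts in WT and Trim33-KO cells. Myc mRNA itself was at 432.8 and 439 CPM in WT Ctrl and 455.9 and 457.6 under the WT Myc label, a log2 fold change of 0.067 ± 0.055 (adjusted p = 0.31) that did not pass, and in KO cells it was at 186.4 to 218.5 CPM in the 4 Ctrl libraries and 459.4 to 645.8 in the 4 libraries labelled Myc. In mRNA, libraries labelled WT Myc thus went against both parts of their label, with Trim33 near its level in KO1 Ctrl and Myc near its level in WT Ctrl. Trim33 mRNA is a limited check of genotype, since KO2 Ctrl, at 200.9 and 206.8 CPM, was nearer to WT Ctrl than to KO1 Ctrl. Whether transcripts of the vector were counted as Myc is not given in the sources used here. Every direction drawn from the WT Myc libraries below is that of the libraries so labelled. With the Myc vector most cytosolic ribosomal protein genes rose, and most mitochondrial ones did not pass the test. In the libraries labelled WT Myc against WT Ctrl, 54 of 86 cytosolic genes rose and 0 fell, with a median log2 fold change of 0.29, whereas 12 of 78 mitoribosomal genes rose and 6 fell, with a median of 0.067. Over all genes 21.6% rose and 22.7% fell there, with a median of 0.0069. With both KO lines in 1 contrast, 83 of 86 cytosolic genes rose and 0 fell, with a median of 0.32, and 20 of 78 mitoribosomal genes rose and 8 fell, with a median of 0.047, beside 21.1% and 20.9% of all genes. By label, 14 members rose and 7 fell in KO1 Myc against KO1 Ctrl (17.9% and 18.2% of all genes) and 17 and 7 in KO2 Myc against KO2 Ctrl (20.2% and 18.6%).

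**Figure D4:**
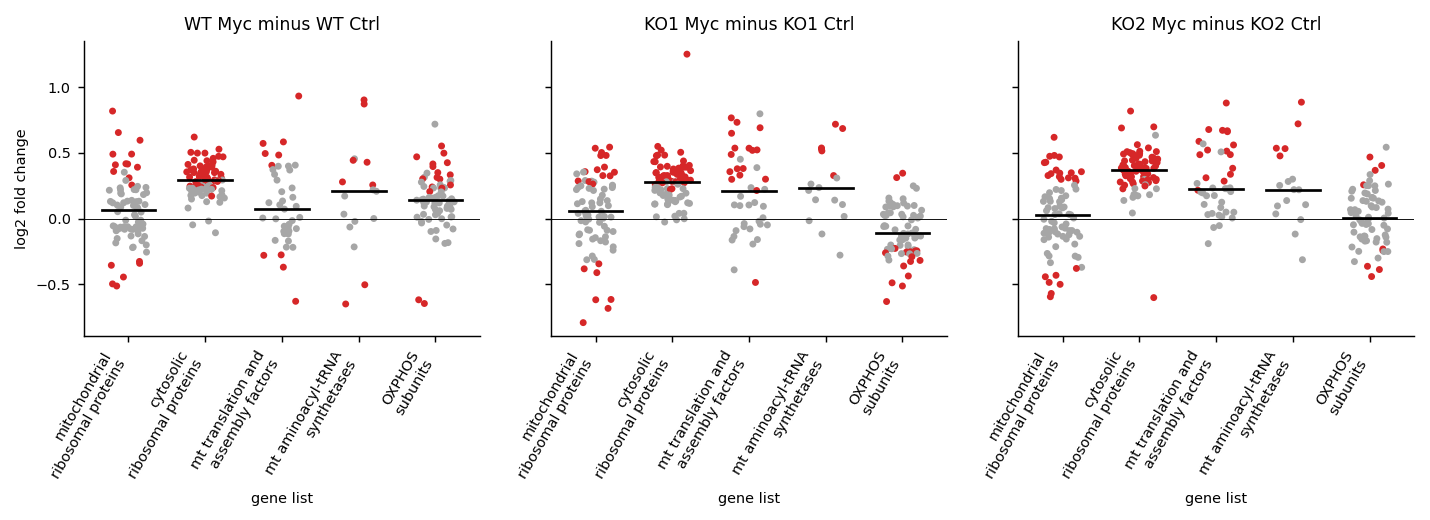
Log2 fold change of Myc over Ctrl libraries for the members and 4 other gene lists in WT, KO1 and KO2 as labelled, 1 point per gene, red where the adjusted p was below 0.01, with the list median as a line. The cytosolic ribosomal proteins sit above 0 with medians of 0.29, 0.28 and 0.37, and the mitochondrial ribosomal proteins spread on both sides of 0 with medians of 0.067, 0.056 and 0.030.

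The factors that assemble or serve the mitochondrial ribosome were counted in the same way. With both KO lines in 1 contrast 21 of 41 translation and assembly factors rose and 0 fell, with a median of 0.25, and 10 of 17 mitochondrial aminoacyl-tRNA synthetases rose and 0 fell, with a median of 0.27. Under the WT label 6 of the 41 factors rose and 4 fell, and 6 of the 17 synthetases rose and 2 fell. Of 72 oxidative phosphorylation subunits 3 rose and 13 fell in KO cells and 15 rose and 2 fell under the WT label.

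Among the members that rose under the WT Myc label against WT Ctrl, Mrps36 had the highest change. Mrps36 was at 12.01 and 11.8 CPM in WT Ctrl and 22.4 and 19.8 under the WT Myc label, with 0.82 ± 0.11 (adjusted p = 1.03e-05). Mrps6 went from 16.8 and 15.5 to 26.4 and 24.6 CPM, with 0.66 ± 0.11, while its neighbour Slc5a3 changed by 0.62 ± 0.13 (adjusted p = 0.000704). The groups did not overlap in either gene. Mrps27, Mrpl11 and Mrpl34 rose by 0.60 ± 0.083, 0.49 ± 0.089 and 0.49 ± 0.088. Mrps10, a small subunit protein, fell from 42.04 and 45.6 to 32.4 and 29.1 CPM, with -0.51 ± 0.086 (adjusted p = 9.92e-05), and Mrpl3 from 84.1 and 91.9 to 65.8 and 58.9 CPM, with -0.50 ± 0.080. Mrpl1 fell too, with -0.45 ± 0.077. Mrpl24 and Mrps18a, at -0.36 ± 0.085 and -0.34 ± 0.10, were called too, but with library totals alone as the scaling they were at -0.27 and -0.26 and were not. Without WT Ctrl replicate 2 the count of members called was 11 in place of 18.

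In KO cells Mrpl18 and Mrps6 were lower with the Myc vector. Mrpl18 was at 65.3 and 61.6 CPM in KO1 Ctrl cells and 69.6 and 64.8 in KO2 Ctrl, against 38.5 and 34.7 under the KO1 Myc label and 48.2 and 42.3 under the KO2 Myc label. All 4 Myc libraries lay below all 4 Ctrl libraries, and with both KO lines together the log2 fold change was -0.68 ± 0.056 (adjusted p = 5.97e-08). Mrps6 was at 25.9 and 22.7 CPM under the KO1 Myc label and 23.3 and 21.1 under the KO2 Myc label, below every KO Ctrl library given above, with -0.61 ± 0.068. Slc5a3, with which it shares exons, was lower as well, at -0.65 ± 0.11 (adjusted p = 0.00012) and -0.86 ± 0.11 (adjusted p = 8.3e-06) by label. Mrps21 fell as well, with -0.53 ± 0.056 over both lines, and by label with -0.62 ± 0.080 in KO1 and -0.44 ± 0.079 in KO2. Mrpl54 fell under the KO1 label, with -0.68 ± 0.095, and Mrps7 under the KO2 label, with -0.50 ± 0.078. Over both lines these were at -0.45 ± 0.067 and -0.34 ± 0.055.

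Among the members that rose with the Myc vector in KO cells Mrps30 had the highest change over both lines. Mrps30, a large subunit protein, was at 53.8 and 54.7 CPM in KO1 Ctrl cells and 53.04 and 49.7 in KO2 Ctrl, against 78.9 and 72.6 under the KO1 Myc label and 72.4 and 70.99 under the KO2 Myc label, a change of 0.48 ± 0.057 (adjusted p = 3.38e-06) over both lines. Mrps9 rose by 0.47 ± 0.067, Mrps22 by 0.46 ± 0.062, Mrpl19 by 0.43 ± 0.057, Mrpl9 by 0.43 ± 0.054 and Mrpl38, a protein of the central protuberance, by 0.43 ± 0.052. For Mrpl38 the levels were 49.5 and 51.2 CPM in KO1 Ctrl, 50.8 and 52.04 in KO2 Ctrl, 76.5 and 70.3 under the KO1 Myc label and 65.4 and 62.1 under the KO2 Myc label, with no overlap. Mrpl24 rose by 0.32 ± 0.071 over both lines, but its Myc libraries, at 26.5 and 23.5 CPM under one label and 18.9 and 19.9 under the other, were all below both WT Ctrl libraries. Mrpl10, of the stalk, rose in each comparison by label, with 0.26 ± 0.064 (adjusted p = 0.00285) in WT, 0.26 ± 0.063 (adjusted p = 0.00266) in KO1 and 0.31 ± 0.064 (adjusted p = 0.000768) in KO2. Its stalk partner Mrpl12 did not pass in any of them, with 0.13 ± 0.078, 0.18 ± 0.077 and 0.031 ± 0.078. The counts by label rest in part on single libraries, since without KO1 Ctrl replicate 1 the count in KO1 was 10 and without KO1 Myc replicate 1 it was 13, both in place of 21, and without KO2 Ctrl replicate 2 the count in KO2 was 11 and without KO2 Myc replicate 2 it was 14, both in place of 24.

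The difference between the Myc response in KO and in WT was tested as labelled. By label, 12 members responded more positively and 11 more negatively in KO1 than in WT (19.2% and 18.1% of all genes), and 12 and 9 did so in KO2 (16.6% and 16.2%). With both KO lines together the counts were 16 and 8, beside 18.1% and 16.6% of all genes. Over both lines the differences were -1.26 ± 0.13 (adjusted p = 8.12e-07) for Mrps6, -1.07 ± 0.10 (adjusted p = 4.32e-07) for Mrpl18, -1.02 ± 0.13 (adjusted p = 9.27e-06) for Mrps36 and -0.84 ± 0.10 (adjusted p = 5.7e-06) for Mrps21 on the negative side. On the positive side they were 0.68 ± 0.11 (adjusted p = 1e-04) for Mrpl24 and 0.68 ± 0.096 (adjusted p = 2.72e-05) for Mrpl1. These contrasts hold the WT Ctrl libraries, as do the comparisons of KO Ctrl with WT Ctrl, so a gene that differed in the latter enters with that difference. Without WT Ctrl replicate 2 or KO2 Ctrl replicate 2 the count in KO2 was 12 in place of 21.

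KO and WT, as labelled, were also compared within the Myc vector libraries. By label, 1 member rose and 7 fell in KO1 Myc against WT Myc (12.6% and 12.5% of all genes), and 2 rose and 8 fell in KO2 Myc against WT Myc (17.2% and 18% of all genes). Over both lines 2 rose and 9 fell, against 16% and 17.8% of all genes. Mrpl24 was again the lowest, at 37.99 and 33.8 CPM under the WT Myc label, 26.5 and 23.5 in KO1 Myc and 18.9 and 19.9 in KO2 Myc, with -0.70 ± 0.077 (adjusted p = 1.9e-06) over both lines. Mrps26 had -0.41 ± 0.071 and Mrpl44 -0.36 ± 0.078 over both lines. Mrpl39 was the member higher under the KO1 label, by 0.33 ± 0.088, and Mrpl42 and Mrps27 were higher under the KO2 label, by 0.37 ± 0.075 and 0.29 ± 0.076. Mrps6, Mrpl18 and Mrps21, which differed between KO Ctrl and WT Ctrl, were at -0.13 ± 0.086, -0.033 ± 0.071 and -0.019 ± 0.071 here and did not pass. Without WT Myc replicate 2, the library with the lower member sum, the counts by label were 13 and 21 in place of 8 and 10. Without KO1 Myc replicate 1 or 2 the first was 2 or 1, and without KO2 Myc replicate 1 the second was 5. The fit on the compared groups alone called 1 and 3.

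The HU experiment asks how replication stress changes the mRNAs with and without Trim33. Few members were called after 4 hours of HU. In WT cells 3 of 77 members rose and 3 fell at an adjusted p below 0.05, against 6.39% and 3.44% of all genes, and in KO cells 0 rose and 2 fell, against 4.65% and 1.8%. That 0 rose in KO cells stands beside 5 members at an unadjusted p below 0.05 in either direction, and DESeq2 called none. The median log2 fold change of the members was -0.10 in WT and -0.13 in KO, and 27 and 22 of 77 had a value above 0, while the median over all genes was 0.00 and -0.0099.

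**Figure D5:**
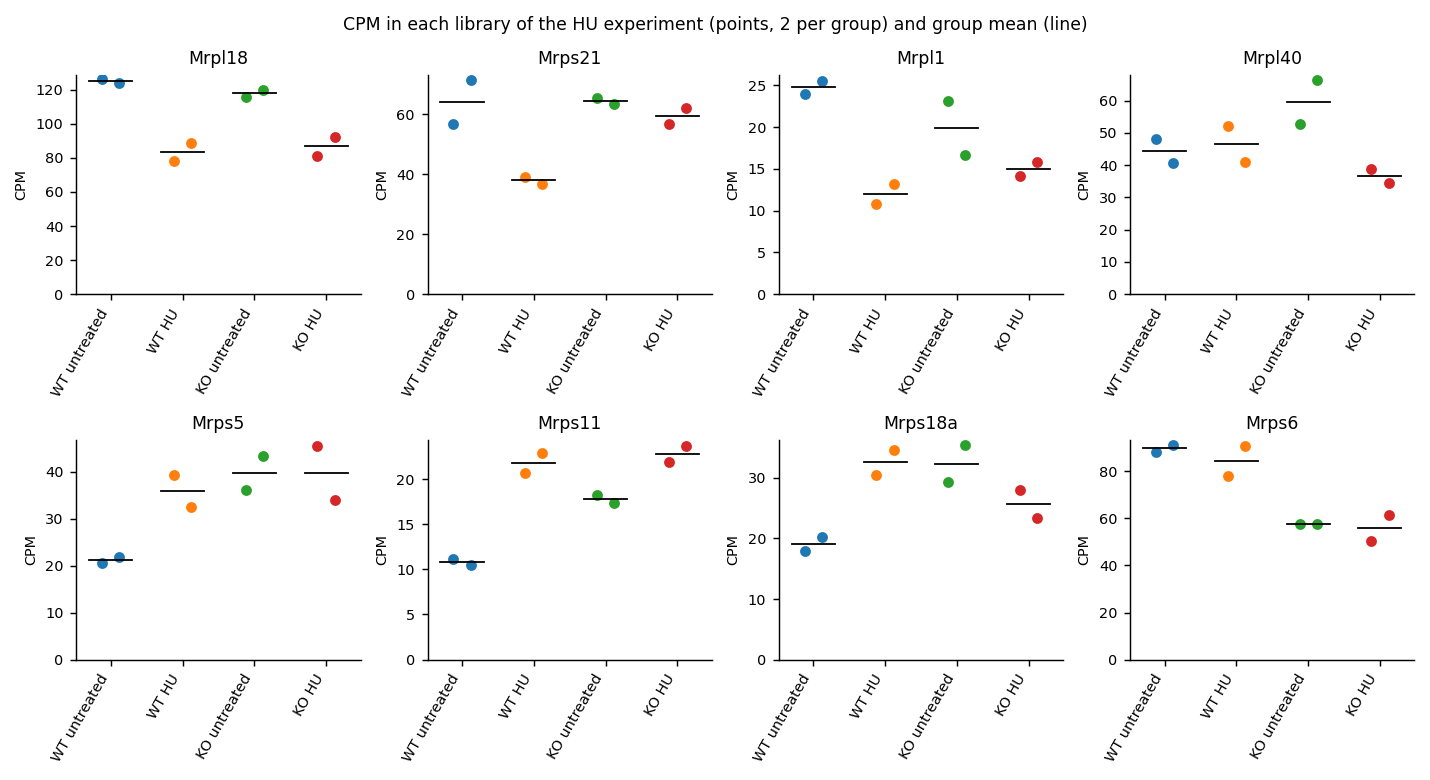
CPM of 8 members in each library of the HU experiment (points, 2 per group) with the group mean as a line, on axes that start at 0. Mrpl18 is lower in all 4 HU libraries than in all 4 untreated ones, Mrps21 is lower with HU in WT cells, and Mrps6 is lower in KO than in WT cells with and without HU.

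Mrpl18 fell in both WT and KO cells. It was at 126 and 124 CPM in untreated and 77.95 and 88.7 in HU-treated WT cells, and at 116 and 119.6 in untreated and 81.3 and 92.1 in HU-treated KO cells. The log2 fold change was -0.59 ± 0.14 (adjusted p = 0.00293) in WT and -0.44 ± 0.14 (adjusted p = 0.0473) in KO, and no HU library reached an untreated one. Its neighbour Tcp1 did not pass, with -0.24 ± 0.10 (adjusted p = 0.137) and -0.16 ± 0.10 (adjusted p = 0.429). Mrps21 was at 56.6 and 71.4 CPM in untreated and 39.1 and 36.7 in HU-treated WT cells, a change of -0.76 ± 0.19 (adjusted p = 0.00349). In KO cells it was at 65.5 and 63.5 CPM before and 56.6 and 62.04 after HU, with -0.12 ± 0.18 (adjusted p = 0.82). The difference between these responses, 0.64 ± 0.26 (adjusted p = 0.833), did not pass.

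Mrpl1 was at 23.99 and 25.6 CPM in untreated and 10.8 and 13.2 in HU-treated WT cells, with -1.05 ± 0.31 (adjusted p = 0.0199). Mrps11 and Mrps5, small subunit proteins with bacterial counterparts, and Mrps18a rose in WT cells, with 1.00 ± 0.32 (adjusted p = 0.0293), 0.76 ± 0.24 (adjusted p = 0.0278) and 0.76 ± 0.26 (adjusted p = 0.0438). Mrps5 was at 20.6 and 21.8 CPM in untreated and 39.5 and 32.6 in HU-treated WT cells. These 4 calls were lost under DESeq2 and whenever 1 of the 4 libraries was left out, with log2 fold changes of -1.19 to -0.91 for Mrpl1 and 0.62 to 0.89 for Mrps5. Mrpl18 and Mrps21 were called by DESeq2 too, but Mrpl18 was not called without WT HU replicate 1 (-0.50) and Mrps21 not without WT untreated replicate 2 (-0.59) or WT HU replicate 2 (-0.71). In KO cells Mrpl40, a protein of the central protuberance, fell from 52.9 and 66.5 to 38.9 and 34.4 CPM, with -0.71 ± 0.20 (adjusted p = 0.0181). DESeq2 called neither Mrpl40 nor Mrpl18 in KO cells, and each lost its call without KO HU replicate 1, at -0.80 and -0.36.

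The other lists held few calls as well. With HU in WT cells, of 86 cytosolic ribosomal protein genes 0 rose and 1 fell, of 40 translation and assembly factors 0 rose and 1 fell, and of 17 mitochondrial aminoacyl-tRNA synthetases 0 rose and 2 fell. The factor that fell was Mtfmt, which formylates the initiator methionyl-tRNA, at -1.45 ± 0.38. In KO cells 0 and 0 of the cytosolic genes and 0 and 0 of the factors rose and fell, with 5 and 1 at an unadjusted p below 0.05 by edgeR. Of the 17 synthetases 1 rose and 0 fell in KO cells. The one that rose was Lars2, the mitochondrial leucyl-tRNA synthetase, with 0.47 ± 0.13 (adjusted p = 0.0113), which fell in WT cells, with -0.41 ± 0.12 (adjusted p = 0.0224). The difference between these responses also passed, with 0.88 ± 0.18 (adjusted p = 0.0168). Lars2 was 1 of 5 genes more positive in KO among the 11210 tested, and it was named here after its values were seen. The alternative fits were read for members alone, so how the calls of Lars2 depend on the processing was not tested.

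Between untreated KO and WT cells of the HU experiment 1 member rose and 1 fell at an adjusted p below 0.01, against 3.07% and 2.52% of all genes. Mrps5 was at 20.6 and 21.8 CPM in WT and 36.2 and 43.4 in KO, with 0.91 ± 0.24 (adjusted p = 0.00659). Mrps6 was at 88.3 and 91.4 CPM in WT and 57.7 and 57.8 in KO, with -0.64 ± 0.17 (adjusted p = 0.00663), and Slc5a3 again moved with it, from 123 and 111 CPM in WT to 41.5 and 38.1 in KO, with -1.55 ± 0.17 (adjusted p = 1.52e-10). Both members pointed the other way than in the Myc experiment, where Mrps5 fell, with -0.44 ± 0.073 and -0.24 ± 0.072, and Mrps6 rose in KO1 Ctrl and KO2 Ctrl. Both calls were lost under DESeq2 (adjusted p = 0.0313 and 0.0259) and whenever 1 of the 4 libraries was left out, with log2 fold changes of 0.77 to 1.02 for Mrps5 and -0.66 to -0.62 for Mrps6. Mrpl24, the member that fell most in the Myc experiment, was at 18.4 and 24.8 CPM in WT and 12.2 and 16.7 in KO, with -0.57 ± 0.32 (adjusted p = 0.261) and a 95% interval from -1.21 to 0.061. Mrpl18 had -0.086 ± 0.14, with an interval from -0.37 to 0.19 that does not reach its rise in KO1 Ctrl. The median of the members was 0.079 and 52 of 77 were above 0. With RLE size factors that median was 0.0771, beside -0.00149 over all genes. With library totals alone as the scaling it was 0.0349, beside -0.0441 over all genes.

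With HU, 10 of 77 members were at an unadjusted p below 0.05 between KO and WT cells by edgeR, and DESeq2 called none. No member passed an adjusted p of 0.01 by edgeR, the threshold at which 3.27% of all genes rose and 2.77% fell. The nearest to the threshold were Mrps6, at 77.95 and 90.7 CPM in WT and 50.2 and 61.6 in KO, with -0.59 ± 0.17 (adjusted p = 0.011), and Mrpl51, with 0.66 ± 0.19 (adjusted p = 0.0117), the latter picked after its values were seen. The fit with the replicate number as a block called 2 members here and that on these 2 groups alone 3. In the test of a difference in HU response between KO and WT cells, 6 of 77 members were at an unadjusted p below 0.05 by edgeR, and DESeq2 called none. No member passed an adjusted p of 0.05 there by edgeR, while over all genes 0.0446% and 0.0268% did. The largest estimate was that of Mrps18a, -1.10 ± 0.36 (adjusted p = 0.641), whose interval runs from -1.81 to -0.39, and which did not pass after adjustment over 11210 genes.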

How the data were processed

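RNA from 20 libraries was sequenced, 12 for the Myc experiment and 8 for the HU experiment. Per the labels, STAR 2.5.4 aligned the reads to mm9, and the read counter and annotation are not given in the sources used here. The deposited tables hold counts per gene and library. The name of one calls its values normalized, but they are whole numbers whose totals differ between libraries, and they were used as counts. Among values of 1 to 50, 71.9% were even in the HU table and 48.4% in the Myc table, so the HU counts were also halved as an alternative. The authors' own comparisons, which hold log2 fold changes and p-values from edgeR 3.26.8, were not used.

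Each experiment was fitted with all its libraries by edgeR 4.0.16 (R 4.3.3, limma 3.58.1), with TMM scaling, filterByExpr (which removed 0 genes), the quasi-likelihood test and Benjamini-Hochberg adjustment over all genes of the table. Members were called at an adjusted p below 0.01, and at 0.05 for HU against untreated and for the difference in HU response. CPM are TMM-scaled. Standard errors come from the test's F statistic. The experiments were sequenced and counted separately and were tested only within their own table. The common biological coefficient of variation was 0.0498 and 0.102. On simulated data 82.8% of genes changed 2-fold and 74.7% of those changed 1.5-fold were recovered for KO1 Ctrl against WT Ctrl over 13107 genes. For WT HU against WT untreated these shares were 64.6% and 29.6% over 11210 genes. The changed genes were drawn from the whole table, 99 per fold for KO1 Ctrl, whereas 3337 genes rose and 3505 fell in the data. The shares are thus not those for the members.

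Gene models on mm9 came from GENCODE M1, and promoters from RefSeq on GRCm38.p6. The members and gene lists were chosen with earlier results of these data known. Per comparison, up to 5 members with the highest and 5 with the lowest change were named among those called whose groups did not overlap, besides members named for their role (Mrpl3, Mrpl10, Mrpl12, Mrpl24, Mrpl44, Mrpl45, Mrps5, Mrps12, Mrps18a, Mrps18b, Mrps18c, Mrps22, Mrps30 and Mrps36), members against the main direction where 5 or fewer, and of other lists the highest or lowest called gene. Genes that overlap a named member were added after its values were seen. Alternatives were edgeR's RLE size factors, library totals, a mean of at least 5 CPM, no filter, DESeq2 1.42.0, the compared groups alone, a replicate block and leaving out each library. The contrasts over both KO lines, and a fit of the Ctrl libraries without the Myc vector ones, were added after the data were seen. Of 5 further mitoribosomal proteins without an Mrpl or Mrps symbol, 1 rose and 1 fell in each KO line against WT Ctrl. Same-numbered libraries of different groups correlated at -0.148 to 0.192 in their deviations, and the numbers were not taken to pair libraries.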

Additional observations from a re-analysis of the deposited data

Results flagged for a closer look

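These results are listed because the test of the difference in Myc response between KO and WT (edgeR's quasi-likelihood test), as labelled, passed for them. The count of members was 23 for KO1 against WT, with 15.4% of the 78 more positive and 14.1% more negative, beside 19.2% and 18.1% of all genes. It was 21 for KO2 against WT, with 15.4% and 11.5%, beside 16.6% and 16.2% of all genes. No test compared these shares. In KO1 the response was more positive for Mrpl24 by 0.8366, Mrpl1 by 0.8181, Mrps18a by 0.6953, Mrpl38 by 0.661 and Mrpl9 by 0.611 on the log2 scale, and more negative for Mrps6 (-1.275), Mrpl18 (-1.185), Mrps36 (-0.9583), Mrps21 (-0.9273) and Mrpl42 (-0.7422). In KO2 it was more positive for Mrps9 (0.675), Mrps10 (0.6576), Mrps30 (0.5467), Mrpl1 (0.5397) and Mrpl32 (0.5239), and more negative for Mrps6 (-1.252), Mrps36 (-1.085), Mrpl18 (-0.9625), Mrpl33 (-0.7897) and Mrps21 (-0.7543). The Myc vector libraries of KO1 and KO2 went against their line labels, so which of the 2 lines a value belongs to is not settled, while the contrast over both lines does not depend on it. The WT Myc libraries went against their label in Trim33 mRNA too, and Myc mRNA did not pass there against WT Ctrl (0.067 ± 0.055, edgeR adjusted p = 0.31). Each gene listed for a line was also called between its Ctrl libraries and WT Ctrl, with the opposite sign, and both tests hold those libraries. Between KO Myc and WT Myc over both lines, Mrps6, Mrpl18 and Mrps21 were at -0.13, -0.033 and -0.019 and did not pass.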

How the results depend on the processing

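Over the alternatives run, 148 of 191 counts of members called stayed within 1.5 times the main count and 43 did not. Of the values of named members 1095 of 1210 stayed on their side of the threshold, 115 lost their call and none changed sign. Leaving out each library in turn gave 30 members for KO1 Ctrl against WT Ctrl, 28 to 31 for KO2 Ctrl against WT Ctrl, 0 for KO2 Ctrl against KO1 Ctrl, 11 to 21 for WT Myc against WT Ctrl, 10 to 17 for KO1 Myc against KO1 Ctrl and 11 to 18 for KO2 Myc against KO2 Ctrl. It gave 1 to 13 for KO1 Myc and 5 to 21 for KO2 Myc against WT Myc, 16 to 28 and 12 to 24 for the Myc response of KO1 and KO2 against that of WT, 1 to 4 for WT HU, 0 to 3 for KO HU, 0 to 1 for KO untreated against WT untreated and 0 for KO HU against WT HU. A fit without 1 library assumes that its lone partner varies like the other groups.

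DESeq2 called 1 member for KO2 Ctrl against KO1 Ctrl, 4 for KO1 Myc against WT Myc, 2 for WT HU, and 0 for KO HU and for KO untreated against WT untreated. With the compared groups alone the counts were 5 for KO2 Ctrl against KO1 Ctrl, 1 for KO1 Myc and 3 for KO2 Myc against WT Myc, 1 for KO HU, 0 for KO untreated against WT untreated and 3 for KO HU against WT HU. With the Myc vector libraries left out, 4 were called for KO2 Ctrl against KO1 Ctrl. Library totals alone gave 1 for KO HU and 1 for KO HU against WT HU, and halved counts gave 1 for the latter. The causes were not tested.

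The replicate block, by which same-numbered libraries form pairs, called 2 members for KO HU against WT HU, where the fit without it called 0, and moved no other count by over 1.5 times (39 for KO1 Ctrl and 44 for KO2 Ctrl against WT Ctrl). Depth was lower and the spread between libraries larger in the HU experiment, and their parts in its lower counts were not told apart.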
